A study of Homo sapiens with 12 samples.

Results

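Complex I of the mitochondrial respiratory chain is built from nuclear and mitochondrial gene products, and its nuclear genes carry symbols that start with NDUF. All protein-coding genes with such a symbol in the expression tables of SCC15 and SCC25 cells were taken, which gave 47 genes, the same 47 in both, out of 29657 genes listed for SCC15 and 31055 for SCC25. They comprise 37 subunits of the complex, of which 15 belong to the peripheral arm, 21 to the membrane arm and 1, NDUFAB1, to both, together with 8 assembly factors (NDUFAF1 to NDUFAF8) and 2 genes, NDUFA4 and NDUFA4L2, that bear the family name but are not counted as Complex I subunits. The subunits were set against the assembly factors in each cell line.

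The samples were SCC15 and SCC25 cells, established lines of human head and neck squamous cell carcinoma (HNSCC). They received 24 h of squamocin at 10 µg/mL, labelled ACGs after the annonaceous acetogenins, or the solvent DMSO, in 3 libraries per group and 12 in all. No gene was altered in any group. The labels do not say whether the 3 libraries of a group came from separate cultures, so p-values measure the spread between these libraries, which may be technical. Each value is a normalized count, the number of reads on a gene divided by 1 size factor of its library, with size factors set by the authors separately for each cell line.

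As background, Complex I takes electrons from NADH, passes them along a chain of iron-sulfur clusters in the peripheral arm to ubiquinone, and couples this to proton transport through the membrane arm. A set of core subunits, shared with the bacterial enzyme, carries the chemistry, and supernumerary subunits surround it. Assembly factors join the arms as modules, modify single subunits and leave the finished enzyme. Annonaceous acetogenins, the class to which squamocin belongs, are known as inhibitors of this complex that act near its ubiquinone site. Protein levels and enzyme activity were not measured in these libraries.

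The libraries held 16665563 to 22748845 recovered reads. In SCC15, squamocin replicate 3 stood apart from the other squamocin libraries, and its normalized counts summed to 24626253, against 20467856 and 20826159 in replicates 1 and 2 and 15466464 to 15535484 in the DMSO libraries. Scaling all libraries to equal totals moved the median log2 fold change of all genes tested from 0.012 to -0.50 in SCC15 and from -0.015 to -0.23 in SCC25. Changes are given relative to the authors' size factors, and equal totals were run as an alternative. Among the 6 squamous markers, KRT17 lay at 109182 to 115353 normalized counts in SCC15 with DMSO, whereas TP63 lay at 12.7 to 22.7, KRT5 at 5.12 to 13.1 and DSG3 at 0 to 2.56, so these 3 defining markers were near 0 in that line, and all 6 were detected in SCC25. The summed markers of immune, endothelial and fibroblast cells (7 of 8 listed per line) were 773 to 834 with DMSO and 475 to 494 with squamocin in SCC15, and 799 to 885 and 914 to 1089 in SCC25. COL3A1 held the largest part in SCC15 (425 to 474 with DMSO and 248 to 277 with squamocin), and COL1A1 in SCC25 (554 to 594 and 881 to 1040.2). The endothelial markers were lower with squamocin, with PECAM1 at 154 to 174 and 63.8 to 77.1 in SCC15 and at 64.5 to 81.9 and 0 to 3.81 in SCC25, and CDH5 at 147 to 179.7 and 10.4 to 17.8 in SCC25. PTPRC and CD68, which mark leukocytes and macrophages, lay at 0 to 7.20 normalized counts in the tables that list them, and CD3E, of T cells, at 3.42 to 27.0. Their part in the results was not tested.

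The members stood at very different levels before treatment. Per kilobase of exonic sequence, NDUFS5 was the highest subunit with DMSO, at 4200.1 ± 137 (SD, n = 3) normalized counts per kb in SCC15 and 3785 ± 88.8 in SCC25, and NDUFA7 the lowest, at 10.3 ± 2.76 and 15.2 ± 4.77. The median subunit lay at 213 per kb in SCC15 and 213 in SCC25. The median of the 8 assembly factors was 63.2 and 74.7, with NDUFAF8 the highest among them and NDUFAF6 the lowest in both lines. Length here is the union of all annotated exons, and 17 of the 47 members share more than 10% of it with another gene, so the assignment of their reads is uncertain. In order of the share these are NDUFS7, NDUFB8, NDUFB2, NDUFA7, NDUFC1, NDUFV2, NDUFC2, NDUFA13, NDUFS3, NDUFAF3, NDUFB9, NDUFA11, NDUFA2, NDUFV1, NDUFB3, NDUFS1 and NDUFA9.

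The nuclear subunits rose as a group in SCC15 cells given squamocin. Of the 36 tested, 29 were higher, 0 were lower and 7 did not pass the test (limma, two-sided, on log2 values with 1 added to each normalized count, with p-values adjusted by Benjamini-Hochberg over all genes tested and a threshold of 0.05). Over all 15902 genes tested in SCC15, 30.9% were called higher and 30.0% lower. No tested subunit was lower at an unadjusted p under 0.05 by limma or with DESeq2 after adjustment, and edgeR called 1 (NDUFS1) lower. NDUFA7 was not tested, because its squamocin libraries, all below its DMSO libraries, brought its mean under the minimum of 10. In such bulk samples fewer cells of a type and less RNA per cell cannot be told apart. The median log2 fold change of the subunits was 0.79, beside 0.012 for all genes tested. Subunits ranged from -0.39 (NDUFC2, not called) to 2.10 (NDUFV2). By arm, 11 of 14 peripheral subunits and 17 of 21 membrane subunits were called higher, at medians of 0.87 and 0.76. With equal library totals 8 of 14 and 4 of 21 were, beside 14.6% of all genes, so the membrane share was then near the background.

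In SCC25 cells the subunits also rose, with a smaller median. Of 37 tested, 28 were higher, 3 were lower (NDUFS1, NDUFV3 and NDUFB11) and 6 did not pass, while over all 16539 genes tested 38.3% were called higher and 38.5% lower. Their median log2 fold change was 0.44, beside -0.015 for all genes tested. Called higher were 10 of 15 peripheral and 17 of 21 membrane subunits, with medians of 0.40 and 0.48. With equal totals 9 of 15 and 13 of 21 were, beside 30.2% of all genes. Of the 46 members tested in both lines, 29 were called higher in both, against 22.1% of all genes tested in both, and 0 were called lower in both, against 18.6%. Subunits made up 24 of these 29, and assembly factors 4. By limma 0 were lower in both at an unadjusted p under 0.05 too, DESeq2 called 0 and edgeR 1, NDUFS1. With equal totals 11 members were called higher in both lines and 4 lower in both. The share of all genes called in both lines was not computed for that scaling.

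**Figure D1:**
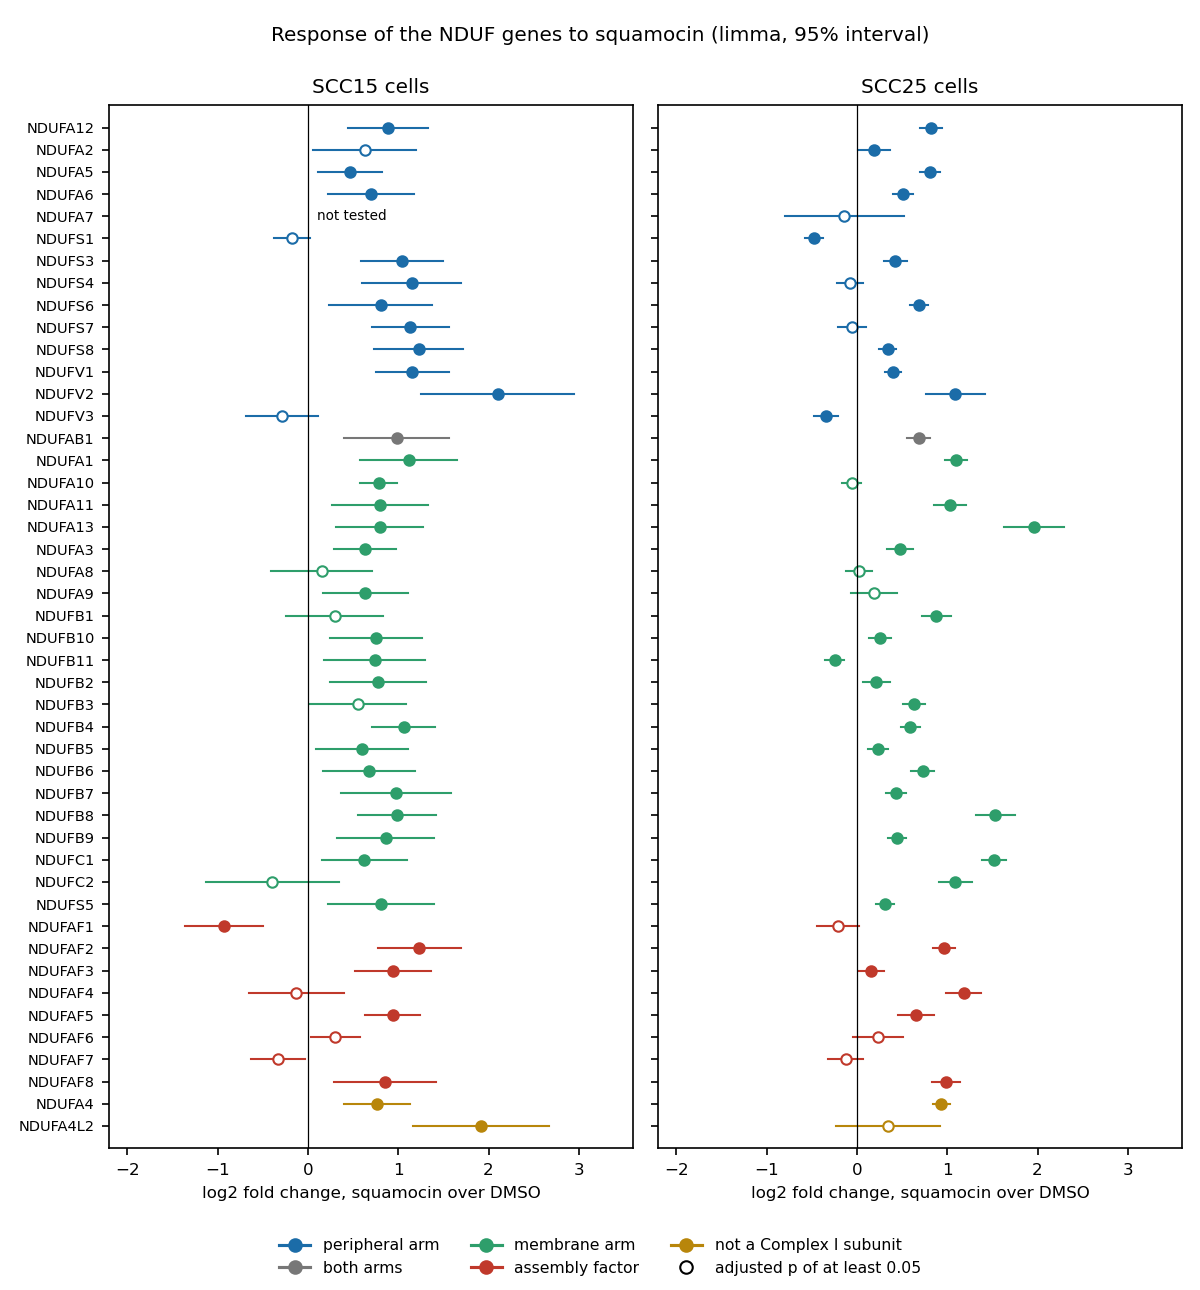
Log2 fold change of squamocin over DMSO for 46 of the 47 NDUF genes in SCC15 and SCC25 cells, with the 95% interval from limma and 3 libraries per group; colours mark the role of the gene and open circles an adjusted p of at least 0.05. Most subunits lie right of 0 in both lines, the intervals are wider in SCC15, and the assembly factors are spread on both sides of 0.

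The scaling of the libraries touched these counts. With equal totals, 12 subunits were called higher and 3 lower in SCC15, where 14.6% and 51.0% of all genes were. In SCC25 the same scaling gave 23 higher and 7 lower, beside 30.2% and 47.6% of all genes. The subunits' median then stood at 0.29 in SCC15 and 0.23 in SCC25, and the median of all genes at -0.50 and -0.23. The share of all reads that fell on the 37 subunits uses no size factor but divides by the total of each library, as equal totals do. It is thus no separate check of the scaling, and abundant genes weigh most in it. In SCC15 it was 0.242%, 0.245% and 0.238% with DMSO and 0.260%, 0.264% and 0.372% with squamocin. In SCC25 it was 0.227%, 0.224% and 0.225% with DMSO and 0.260%, 0.256% and 0.260% with squamocin. The groups did not overlap in either line, and the rise in SCC15 was steepest in squamocin replicate 3.

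That library carried the highest value of 35 of the 37 subunits among the squamocin libraries of SCC15. The median subunit lay 0.51, 0.52 and 1.28 above the DMSO mean on the log2 scale in squamocin replicates 1, 2 and 3. The 3 squamocin libraries of SCC25 were alike, at 0.42, 0.46 and 0.46. Without DMSO replicate 1, 2 or 3 of SCC15 the subunits called higher were 18, 17 and 18. The share of all genes called was not computed for these fits. Without SCC15 squamocin replicate 3, the test called 31 subunits higher and 4 lower, with a subunit median of 0.49. Over all genes that fit called 6086 higher and 6022 lower, where the fit with every library called 4921 and 4773. Calls thus increased over all genes too.

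**Figure D2:**
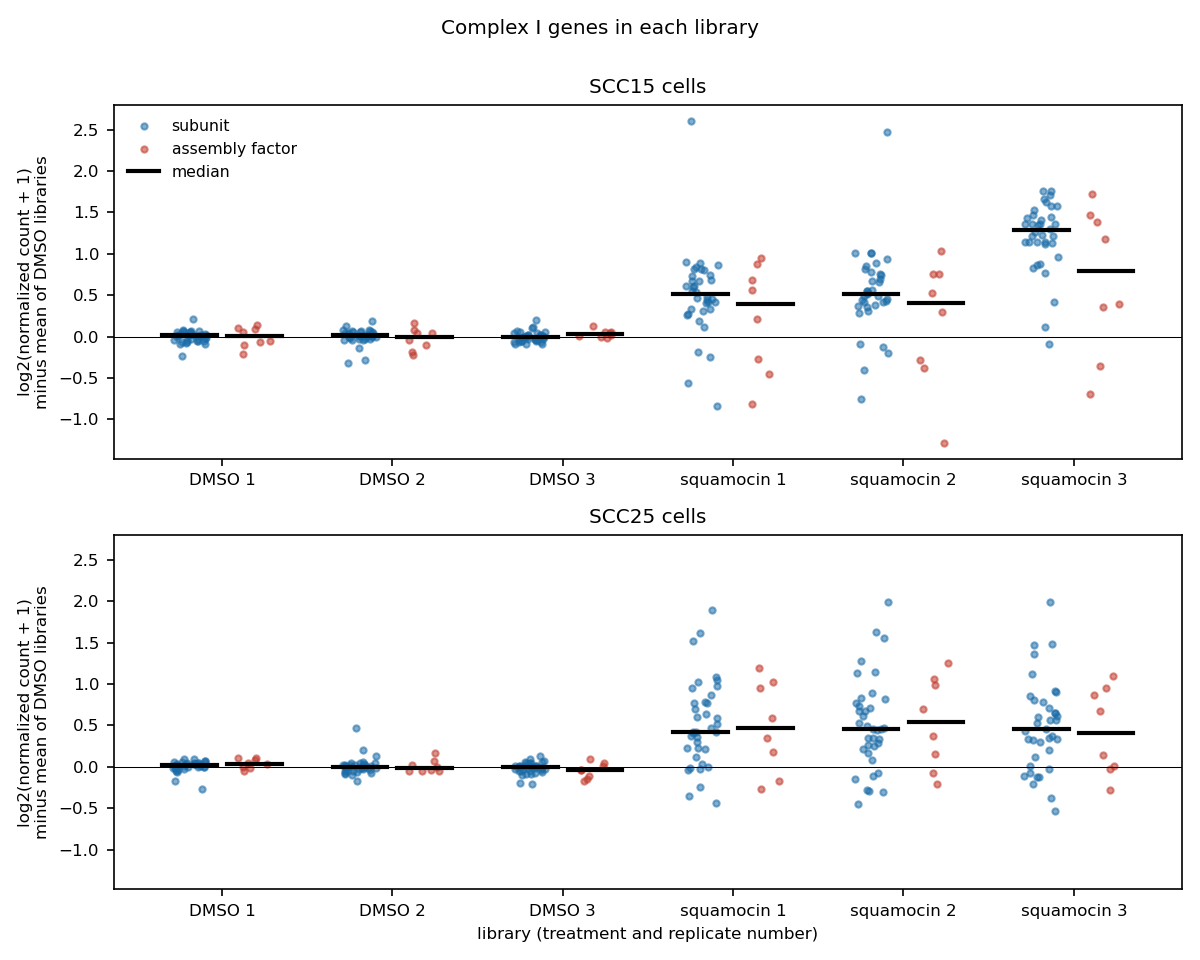
Each subunit (blue) and assembly factor (red) in each of the 12 libraries, as log2(normalized count + 1) minus the mean of the DMSO libraries of the same cell line; black bars mark medians. The medians of SCC15 squamocin replicate 3 lie at 1.28 for subunits and 0.79 for assembly factors, above those of the other squamocin libraries, and 1 subunit, NDUFV2, lies highest in replicates 1 and 2.

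The core subunits of the peripheral arm form the path of the electrons. Of the 6 described here 5 rose in SCC15 and 4 in SCC25, beside 30.9% and 38.3% of all genes. NDUFV1 (chr11:67605653-67612554, GRCh38) binds the flavin and oxidises NADH. It held 2233, 2214 and 2223 normalized counts with DMSO and 4114, 4479 and 6618 with squamocin in SCC15, without overlap (log2 fold change 1.16 ± 0.17 (SE), adjusted p = 0.00100). In SCC25 the counts were 5571, 5657 and 5666 with DMSO and 7521, 7169 and 7606 with squamocin, again without overlap (log2 fold change 0.40 ± 0.038 (SE), adjusted p = 8.45e-07). The rise was 2.23-fold in SCC15 and 1.32-fold in SCC25, and the responses differed by 0.76 on the log2 scale (95% interval 0.35 to 1.16, adjusted p = 0.00418).

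NDUFV2 (chr18:9102630-9134345), which holds an iron-sulfur cluster beside the flavin, had the largest rise of any subunit in SCC15. Its counts were 61.4, 41.9 and 56.7 with DMSO and 325, 298 and 124 with squamocin (log2 fold change 2.10 ± 0.36 (SE), adjusted p = 0.00198), so that replicate 3, the highest library for most subunits, was the lowest of the 3 here. In SCC25 the counts went from 123, 125 and 132 to 249, 225 and 354 (log2 fold change 1.09 ± 0.15 (SE), adjusted p = 2.31e-05). The groups were separate in both lines. A long non-coding RNA on the same strand covers 28.4% of its exonic bases, and the pseudogene NDUFV2P1 is listed beside it, so the assignment of its reads is uncertain.

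NDUFS1 (chr2:206114817-206159603), the largest subunit and a carrier of several iron-sulfur clusters, went against the group. In SCC25 it fell from 2499.96, 2518 and 2455 to 1840.4, 1817 and 1723 normalized counts (log2 fold change -0.47 ± 0.045 (SE), adjusted p = 7.13e-07). In SCC15 it held 1873, 2043 and 1906 with DMSO and 1631, 1692 and 1824 with squamocin (log2 fold change -0.18 ± 0.085 (SE), adjusted p = 0.104). All squamocin libraries of SCC15 lay below all DMSO libraries, yet the change did not pass the test there. With equal totals the SCC15 value was -0.68 (adjusted p = 0.000356) and without squamocin replicate 3 it was -0.22 (adjusted p = 0.000541), both past the threshold. The responses differed by 0.30 on the log2 scale (95% interval 0.094 to 0.50, adjusted p = 0.0172), a difference that was lost with equal totals, at 0.0061 (adjusted p = 0.958).

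NDUFS7 (chr19:1383527-1395589), which holds an iron-sulfur cluster beside the ubiquinone pocket, rose in 1 of the lines. NDUFS7 rose in SCC15, from 478, 453 and 453 to 815, 929 and 1376 (log2 fold change 1.13 ± 0.18 (SE), adjusted p = 0.00149). In SCC25 its libraries overlapped, at 628, 591 and 555 with DMSO and 606, 558 and 543 with squamocin (log2 fold change -0.055 ± 0.071 (SE), adjusted p = 0.499), and with equal totals it was called lower there, at -0.26 (adjusted p = 0.00421). Between the lines the NDUFS7 response differed by 1.19 on the log2 scale (95% interval 0.74 to 1.64, adjusted p = 0.000401). Other annotated genes, among them long non-coding RNAs on the opposite strand, cover 51.5% of the exonic bases of NDUFS7, and strand was not stated for the counting, so its value is uncertain.

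NDUFS3 and NDUFS8 rose in both lines. NDUFS3 (chr11:47565336-47584562), a part of the module that binds ubiquinone, rose 2.06-fold in SCC15, from 788, 774 and 746 to 1294, 1394 and 2218 (adjusted p = 0.00271), and 1.34-fold in SCC25, from 769, 762 and 759 to 1019, 1098 and 967 (adjusted p = 2.72e-05). NDUFS8 (chr11:68030617-68036644), which holds iron-sulfur clusters near that pocket, rose 2.34-fold in SCC15, from 1121, 1082 and 1110.4 to 2065, 2232 and 3740.2 (adjusted p = 0.00191), and 1.27-fold in SCC25, from 2320.2, 2172 and 2255 to 2883, 2856 and 2814 (adjusted p = 1.06e-05). In both lines and for both genes every squamocin library was above every DMSO library. The response was larger in SCC15, by 0.62 on the log2 scale (95% interval 0.15 to 1.08, adjusted p = 0.0278) for NDUFS3, which was lost with equal totals, at 0.33 (adjusted p = 0.0937), and passed in 5 of 12 fits that each left out 1 library, and by 0.88 on the log2 scale (95% interval 0.39 to 1.38, adjusted p = 0.00571) for NDUFS8. All 6 core subunits described had a larger log2 fold change in SCC15 than in SCC25, and the difference passed the test for 5 of them. With equal totals it passed for 3, NDUFV1, NDUFS7 and NDUFS8.

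Among the supernumerary subunits of the peripheral arm, NDUFS4 (chr5:53560633-53683340) is needed late in assembly to hold the NADH module in place. It rose in SCC15 from 635, 643 and 607 to 1098, 1160.4 and 2119 (log2 fold change 1.15 ± 0.23 (SE), adjusted p = 0.00432). In SCC25 it read 858, 761 and 832 with DMSO and 815, 758 and 748 with squamocin, with overlap (log2 fold change -0.078 ± 0.065 (SE), adjusted p = 0.286), and with equal totals it was called lower there, at -0.29 (adjusted p = 0.00124). The responses differed by 1.23 on the log2 scale (95% interval 0.66 to 1.79, adjusted p = 0.00160). NDUFV3 (chr21:42879644-42913304), a small subunit of the NADH module, fell in SCC25 from 717, 667 and 687 to 539, 557 and 532 (log2 fold change -0.35 ± 0.061 (SE), adjusted p = 0.000213). In SCC15 its libraries overlapped, at 776, 808 and 839 and 547, 608 and 871 (log2 fold change -0.29 ± 0.17 (SE), adjusted p = 0.174), and without squamocin replicate 3 it was called lower, at -0.49 (adjusted p = 1.72e-06), as with equal totals, at -0.78 (adjusted p = 0.00104).

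The other 5 peripheral subunits were NDUFA2, NDUFA5, NDUFA6, NDUFA12 and NDUFS6. NDUFS6, which binds zinc and is needed for a late step of assembly, held 3058, 2913 and 2899 with DMSO and 4000.4, 4324 and 7986 with squamocin in SCC15 (log2 fold change 0.81 ± 0.24 (SE), adjusted p = 0.0225), and 1611, 1520.2 and 1541 and 2524, 2582 and 2438 in SCC25 (log2 fold change 0.69 ± 0.046 (SE), adjusted p = 2.60e-08). Its groups were separate in both lines. The SCC15 calls of NDUFS6, NDUFA5 and NDUFA6 each held in 3 of 6 fits that left out 1 library. NDUFA5, NDUFA6, NDUFA12 and NDUFS6 were called higher in both lines, with log2 fold changes of 0.47 to 0.89 in SCC15 and 0.51 to 0.82 in SCC25. NDUFA2 was called higher in SCC25 (0.19) and did not pass in SCC15 (0.63, adjusted p = 0.0561). The SCC25 call of NDUFA2 was lost with equal totals, at -0.018 (adjusted p = 0.842), and held in 3 of 6 fits that each left out 1 library. With equal totals NDUFA12 alone of these 5 was called in SCC15, and NDUFA5 stood at -0.031 there.

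NDUFA7 (chr19:8308768-8321396), another peripheral subunit, was left out of the test in SCC15, where the mean over both groups had to reach 10. Its mean was 14.3 with DMSO and 2.72 with squamocin, so its squamocin libraries alone brought it under that minimum. It held 17.9, 10.3 and 14.8 normalized counts with DMSO and 4.64, 2.28 and 1.24 with squamocin, without overlap. When all genes above 0 were tested, its log2 fold change in SCC15 was -2.12 ± 0.49 (SE, adjusted p = 0.00929). In SCC25 it read 16.9, 28.8 and 17.7 and 20.3, 16.6 and 18.9, with overlap (log2 fold change -0.14 ± 0.30 (SE), adjusted p = 0.688). A protein-coding gene on the same strand covers 32.5% of its exonic bases, so the assignment of its reads is uncertain.

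The largest rises in SCC25 were in the membrane arm. NDUFA13 (chr19:19515736-19529054), also known as GRIM-19 and first described in cell death induced by interferon and retinoic acid, rose 3.89-fold, from 42.7, 49.5 and 37.2 to 161, 174 and 173 (log2 fold change 1.96 ± 0.15 (SE), adjusted p = 1.15e-07). In SCC15 it rose 1.74-fold, from 82.8, 64.0 and 89.9 to 125, 116 and 174 (log2 fold change 0.80 ± 0.21 (SE), adjusted p = 0.0123), and with equal totals that call was lost, at 0.30 (adjusted p = 0.166). The response was smaller in SCC15, with a difference of -1.16 on the log2 scale (95% interval -1.72 to -0.60, adjusted p = 0.00225). A protein-coding gene on the same strand covers 16.1% of its exonic bases.

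NDUFB8 (chr10:100523740-100530000), whose protein is widely used as a marker of assembled Complex I, rose 2.89-fold in SCC25, from 154, 152 and 143 to 461, 464 and 385 (log2 fold change 1.53 ± 0.098 (SE), adjusted p = 1.71e-08). In SCC15 it rose 1.99-fold, from 124, 166 and 150.2 to 257, 256 and 371 (log2 fold change 0.99 ± 0.19 (SE), adjusted p = 0.00284). Neither line had overlapping groups, and other genes cover 48.5% of the exonic bases of NDUFB8. NDUFA1 (chrX:119871487-119876662), a small subunit needed for an early step of membrane arm assembly, rose in both lines, from 1594, 1486 and 1523 to 2799, 2625 and 5013 in SCC15 (log2 fold change 1.12 ± 0.23 (SE), adjusted p = 0.00443) and from 643, 629.7 and 625 to 1285, 1401 and 1381 in SCC25 (log2 fold change 1.10 ± 0.055 (SE), adjusted p = 1.89e-09). The difference between the lines was 0.019 on the log2 scale (95% interval -0.52 to 0.56, adjusted p = 0.957), an interval that leaves room for a gap in either direction. Without SCC15 squamocin replicate 3, the highest library for NDUFA1, the difference was -0.28 (adjusted p = 0.00357) and passed the test.

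NDUFC1 and NDUFC2 sit side by side in the membrane arm and had unlike values in SCC15. NDUFC1 (chr4:139266880-139302551) rose in SCC25 from 528, 483 and 536 to 1474, 1521 and 1437 (log2 fold change 1.52 ± 0.059 (SE), adjusted p = 2.00e-10). In SCC15 it rose from 644, 624 and 643 to 789, 859 and 1402 (log2 fold change 0.63 ± 0.20 (SE), adjusted p = 0.0300), a call lost with equal totals, at 0.13 (adjusted p = 0.470), and without DMSO replicate 1, 2 or 3 (adjusted p = 0.0783, 0.0865 and 0.0777). NDUFC2 (chr11:78068304-78080219) rose in SCC25 from 459, 448 and 437 to 947, 1086 and 848 (log2 fold change 1.09 ± 0.083 (SE), adjusted p = 8.59e-08). In SCC15 it held 282, 277 and 299 with DMSO and 159, 169 and 383 with squamocin, so replicates 1 and 2 lay below every DMSO library and replicate 3 above them (log2 fold change -0.39 ± 0.31 (SE), adjusted p = 0.306). Without replicate 3 its log2 fold change in SCC15 was -0.80 (adjusted p = 4.83e-07), and with equal totals -0.89 (adjusted p = 0.0186). The responses of the lines differed by -1.48 on the log2 scale (95% interval -2.24 to -0.73, adjusted p = 0.00318) for NDUFC2 and by -0.89 on the log2 scale (95% interval -1.38 to -0.41, adjusted p = 0.00492) for NDUFC1.

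NDUFB11 (chrX:47142216-47145504), a membrane arm subunit encoded on the X chromosome, was the 1 member called in opposite directions. It fell in SCC25 from 1397, 1446 and 1437 to 1199.8, 1173 and 1235 (log2 fold change -0.25 ± 0.048 (SE), adjusted p = 0.000462). It rose in SCC15 from 1885, 1795 and 1725 to 2412, 2439 and 4606 (log2 fold change 0.74 ± 0.24 (SE), adjusted p = 0.0292), which with equal totals became 0.24 (adjusted p = 0.274). The SCC15 call was also lost without DMSO replicate 1, 2 or 3 (limma, adjusted p = 0.0690, 0.0798 and 0.0867). The difference between the responses was 0.98 on the log2 scale (95% interval 0.42 to 1.55, adjusted p = 0.00634).

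Of the remaining 15 subunits of the membrane arm, 12 were called higher in SCC15 and 12 in SCC25, beside 30.9% and 38.3% of all genes. With equal totals 2 were in SCC15, NDUFA10 and NDUFB4, and 8 in SCC25, beside 14.6% and 30.2% of all genes. The SCC15 share was then near the background. In SCC25 NDUFB2, NDUFB5, NDUFB10 and NDUFS5 lost the call with equal totals. NDUFA8 and NDUFA10 were called lower there, beside 47.6% of all genes. The difference between the lines passed the test for NDUFA10 and NDUFB4. NDUFA10, a nucleoside kinase-like subunit, held 1298, 1454 and 1402 with DMSO and 2292, 2312 and 2544 with squamocin in SCC15 (log2 fold change 0.78 ± 0.088 (SE), adjusted p = 0.000299). In SCC25 it read 2714, 2644 and 2634 and 2595, 2404 and 2690.01 (log2 fold change -0.057 ± 0.049 (SE), adjusted p = 0.299), and with equal totals it was called lower there, at -0.27 (adjusted p = 0.000394). The responses differed by 0.84 on the log2 scale (95% interval 0.62 to 1.06, adjusted p = 2.10e-05). NDUFB4 rose in both lines, from 1457, 1611 and 1532 to 2733, 2935 and 4065 in SCC15 and from 1745, 1619 and 1766 to 2575, 2622 and 2521 in SCC25, with a response larger in SCC15 by 0.47 on the log2 scale (95% interval 0.11 to 0.83, adjusted p = 0.0300). That difference was lost with equal totals, at 0.18 (adjusted p = 0.198), and passed in 6 of 12 fits that each left out 1 library. NDUFS5, the most abundant subunit per kb, went from 2271, 2387 and 2247 to 3079, 3371 and 6357 in SCC15 (log2 fold change 0.81 ± 0.25 (SE), adjusted p = 0.0252) and from 2128, 2035 and 2059 to 2682, 2461 and 2559 in SCC25 (log2 fold change 0.31 ± 0.047 (SE), adjusted p = 5.76e-05). Both of its calls were lost with equal totals, and its SCC15 call held in 3 of 6 fits that each left out 1 library. The other 12 ranged from 0.15 (NDUFA8, not called) to 0.98 (NDUFB7) in SCC15 and from 0.020 (NDUFA8, not called) to 1.03 (NDUFA11) in SCC25. NDUFB1 and NDUFB3 passed the test in SCC25 and not in SCC15, NDUFA9 in SCC15 and not in SCC25, and NDUFA8, a subunit with paired cysteine motifs, in neither. For these 4 the difference between the lines did not pass the test. Without SCC15 squamocin replicate 3 it passed for NDUFB1, at -0.87 (adjusted p = 1.55e-06), and for NDUFB3, at -0.36 (adjusted p = 0.00178), and with equal totals for NDUFB1, at -0.88 (adjusted p = 0.00314). NDUFAB1, the mitochondrial acyl carrier protein, which sits in both arms and also serves fatty acid synthesis, rose from 963, 1039.7 and 945 to 1561, 1546 and 3032 in SCC15 (log2 fold change 0.98 ± 0.25 (SE), adjusted p = 0.0108) and from 1043, 1075 and 1011 to 1799.7, 1659.7 and 1578 in SCC25 (log2 fold change 0.68 ± 0.058 (SE), adjusted p = 2.37e-07), and its SCC15 call was lost with equal totals, at 0.49 (adjusted p = 0.0574).

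The assembly factors rose and fell in SCC15 and were called in 1 direction in SCC25, and no test set them against the subunits. In SCC15, 4 of 8 rose, 1 fell and 3 did not pass, beside 30.9% of all genes higher and 30.0% lower, with a median log2 fold change of 0.58. In SCC25, 5 rose, 0 fell and 3 did not pass, beside 38.3% and 38.5% of all genes, with a median of 0.44, close to the 0.44 of the subunits. In SCC25 none was lower at an unadjusted p under 0.05, and edgeR and DESeq2 called 0 lower. With equal totals 3 factors were higher and 3 lower in SCC15 (all genes 14.6% and 51.0%), and 4 and 2 in SCC25 (all genes 30.2% and 47.6%). Their share of reads was 0.0205%, 0.0204% and 0.0211% with DMSO and 0.0228%, 0.0226% and 0.0304% with squamocin in SCC15, and 0.0146%, 0.0142% and 0.0140% and 0.0187%, 0.0191% and 0.0184% in SCC25. The shares of the treatments were separate in both lines.

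NDUFAF2, a relative of the subunit NDUFA12 that holds its place until late in assembly, rose most among the factors in SCC15. It went from 509, 565 and 571 to 1056, 1123 and 1804 normalized counts in SCC15 (log2 fold change 1.23 ± 0.20 (SE), adjusted p = 0.00142) and from 521, 505 and 539.96 to 1013, 1032 and 1010.3 in SCC25 (log2 fold change 0.96 ± 0.057 (SE), adjusted p = 8.10e-09). No library of squamocin overlapped with DMSO. NDUFA12 itself also rose, with log2 fold changes of 0.89 in SCC15 and 0.82 in SCC25.

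NDUFAF5, an enzyme that hydroxylates an arginine of NDUFS7, and NDUFAF8, the protein that stabilises it, rose in both lines. NDUFAF5 went from 243, 226 and 232 to 430.1, 396 and 531 in SCC15 (log2 fold change 0.94 ± 0.13 (SE), adjusted p = 0.000728) and from 244, 276 and 223 to 372, 401 and 395 in SCC25 (log2 fold change 0.66 ± 0.093 (SE), adjusted p = 3.18e-05). NDUFAF8 went from 786, 682 and 740.3 to 1088, 1056 and 2037 in SCC15 (log2 fold change 0.85 ± 0.24 (SE), adjusted p = 0.0175) and from 496, 444 and 449 to 938, 962 and 846 in SCC25 (log2 fold change 0.98 ± 0.071 (SE), adjusted p = 5.88e-08). In each case all squamocin libraries were above all DMSO libraries. With equal totals the call of NDUFAF8 in SCC15 was lost, at 0.36 (adjusted p = 0.132), and so it was without DMSO replicate 2 or 3 (adjusted p = 0.0627 and 0.0520).

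NDUFAF3 and NDUFAF4 act together on the module that binds ubiquinone, and their responses ran in opposite order across the lines. NDUFAF3 rose in SCC15 from 895, 959.8 and 949 to 1506, 1572 and 2444 (log2 fold change 0.94 ± 0.18 (SE), adjusted p = 0.00319). In SCC25 it went from 476, 461 and 449.7 to 524, 516 and 512 (log2 fold change 0.16 ± 0.064 (SE), adjusted p = 0.0371), a rise that turned to -0.047 (adjusted p = 0.513) with equal totals. That call was also lost by edgeR and DESeq2, and without any 1 of the 3 DMSO libraries or squamocin replicate 1 or 2 of SCC25. NDUFAF4 rose in SCC25 from 199, 191 and 174 to 432, 448 and 404 (log2 fold change 1.18 ± 0.088 (SE), adjusted p = 7.66e-08). In SCC15 it overlapped, at 127, 101 and 120.5 with DMSO and 84.6, 94.6 and 148 with squamocin (log2 fold change -0.13 ± 0.23 (SE), adjusted p = 0.644). Without squamocin replicate 3 the SCC15 value of NDUFAF4 was -0.37 (adjusted p = 0.0363), without replicate 1 it was 0.032, and with equal totals -0.62 (adjusted p = 0.0190). The response of NDUFAF3 was larger in SCC15 by 0.78 on the log2 scale (95% interval 0.35 to 1.21, adjusted p = 0.00514). That of NDUFAF4 was smaller in SCC15, by -1.31 on the log2 scale (95% interval -1.85 to -0.77, adjusted p = 0.000744).

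NDUFAF1, a member of the complex that builds the membrane arm around its mitochondrial subunits, was the factor that fell in SCC15. Its counts were 275, 219.8 and 280.2 with DMSO and 146, 105 and 158 with squamocin (log2 fold change -0.93 ± 0.18 (SE), adjusted p = 0.00377). In SCC25 they were 268, 262 and 220.4 and 206, 237 and 204, with overlap (log2 fold change -0.21 ± 0.11 (SE), adjusted p = 0.0915), and with equal totals NDUFAF1 was called lower there too, at -0.42 (adjusted p = 0.00305), as it was without squamocin replicate 2 or DMSO replicate 3 (adjusted p = 0.0384 and 0.0361). The responses differed by -0.72 on the log2 scale (95% interval -1.20 to -0.23, adjusted p = 0.0165). NDUFAF7, an arginine methyltransferase of Complex I assembly, read 194, 251 and 230.5 and 185, 172 and 174 in SCC15 (adjusted p = 0.0548) and 314, 313 and 347 and 287, 282 and 325 in SCC25 (adjusted p = 0.216). NDUFAF6, a factor of peripheral arm assembly, read 144, 158 and 148 and 174, 185 and 198 in SCC15 (adjusted p = 0.0505) and 151, 144 and 148 and 188, 191 and 144 in SCC25 (adjusted p = 0.115). Neither passed the test in either line, although in SCC15 the groups were separate for both. With equal totals NDUFAF7 was called lower in both lines, at -0.83 (adjusted p = 0.00218) in SCC15 and -0.33 (adjusted p = 0.00485) in SCC25. In SCC15 it was also called lower without squamocin replicate 3, at -0.32 (adjusted p = 0.0190), without DMSO replicate 1, and by edgeR, DESeq2 and TMM factors. NDUFAF6 was called higher in SCC25 without squamocin replicate 3, the library at 144, where its log2 fold change was 0.36.

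**Figure D3:**
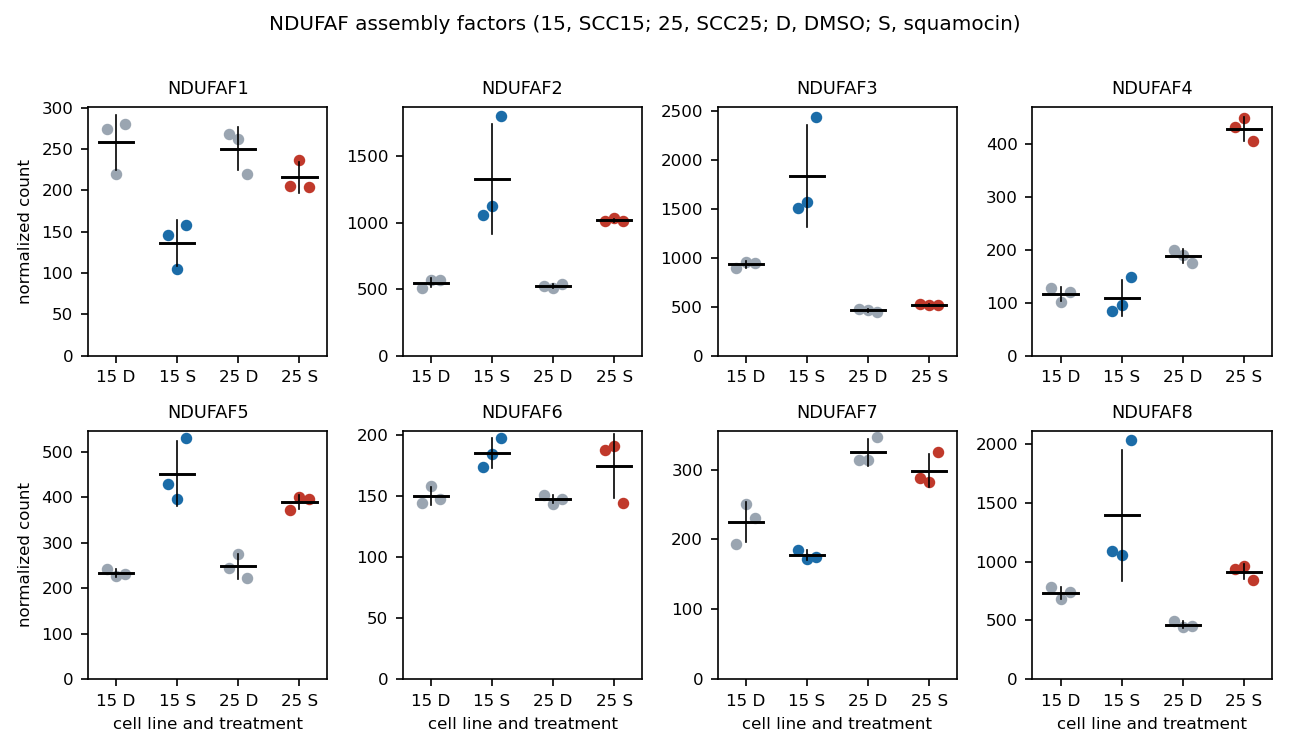
Normalized counts of the 8 NDUFAF assembly factors in every library; points are libraries, horizontal bars the mean of 3 libraries and vertical lines the SD, with axes from 0. NDUFAF2, NDUFAF5 and NDUFAF8 lie higher with squamocin in both lines, NDUFAF4 in SCC25, and NDUFAF1 lies lower with squamocin in SCC15.

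NDUFA4, now assigned to Complex IV, and its relative NDUFA4L2, a gene known to respond to hypoxia, were counted apart. NDUFA4 rose from 1882, 1999 and 2013 to 2904, 2964 and 4329 in SCC15 (log2 fold change 0.77 ± 0.16 (SE), adjusted p = 0.00432) and from 2190.5, 2122 and 2141 to 4049, 4281 and 3998 in SCC25 (log2 fold change 0.93 ± 0.043 (SE), adjusted p = 8.40e-10). With equal totals the SCC15 value was 0.27 (adjusted p = 0.0559). NDUFA4L2 was low, at 11.9, 9.49 and 6.11 with DMSO and 37.1, 29.6 and 43.5 with squamocin in SCC15, without overlap (log2 fold change 1.92 ± 0.32 (SE)). Its DMSO mean of 9.18 was under the minimum of 10, so it entered the fit through its squamocin libraries alone, and its SCC15 values are a description. In SCC25 it read 26.6, 31.5 and 24.8 and 26.7, 33.3 and 48.8, with overlap (log2 fold change 0.34 ± 0.27 (SE), adjusted p = 0.252). The log2 fold change was larger in SCC15 by 1.57 (95% interval 0.66 to 2.49).

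The difference of the responses was tested for all genes tested in both lines. Among the 46 members, 11 responded more positively in SCC15 and 5 more negatively, against 26.1% and 26.0% of all genes. These shares are near the background or below it. The 11 include NDUFA4L2, which passed the filter in SCC15 through its squamocin libraries alone, so its place among them is a description. Of the 36 subunits, 9 and 3 were called, and of the 8 assembly factors 1 and 2. Across the 46 members Pearson's r between the log2 fold changes of the lines was 0.27 and Spearman's rho 0.20, given as a description since the members share libraries. Without SCC15 squamocin replicate 3 the subunit counts were 14 and 11. Over all genes that fit called 4705 and 4842, where the fit with every library called 3779 and 3761, so calls increased over all genes too. A limit of this contrast is that each table was scaled on its own.

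**Figure D4:**
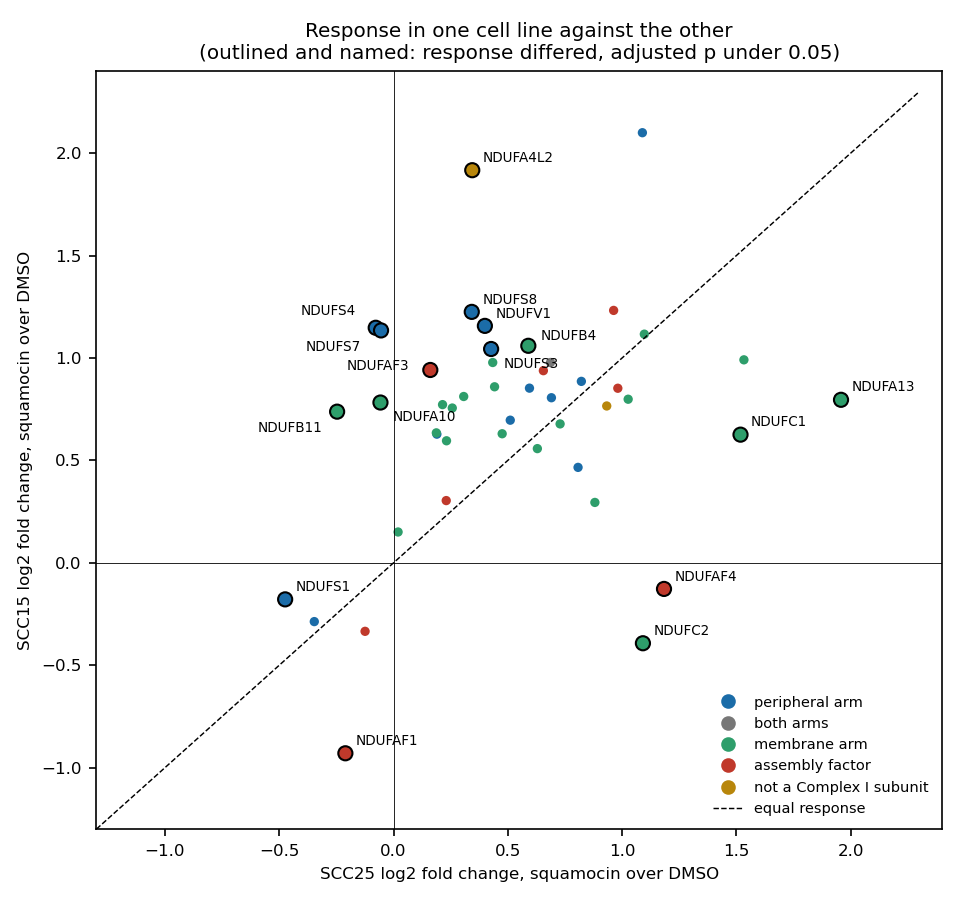
Log2 fold change of squamocin over DMSO in SCC15 (vertical axis) against SCC25 (horizontal axis) for the 46 NDUF genes tested in both lines, coloured by role; outlined and named genes had responses that differed with an adjusted p under 0.05, and the dashed line marks equal response. NDUFC2 and NDUFAF4 lie far below the line and NDUFS4, NDUFS7 and NDUFA4L2 far above it. NDUFA4L2 passed the filter in SCC15 through its squamocin libraries alone, so its outline is a description.

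The 7 subunits encoded in the mitochondrial genome moved the other way. In SCC15 all 7 fell, with a median log2 fold change of -2.24, and in SCC25 5 fell and 1 rose, with a median of -1.62. Over all genes 30.0% were called lower in SCC15, and 38.5% lower and 38.3% higher in SCC25. MT-ND1, a core subunit at the joint of the arms, fell in SCC15 (log2 fold change -3.07 ± 0.11 (SE)), from a mean of 7357 to 879 normalized counts, and in SCC25 (-2.66 ± 0.099 (SE)), from 23046 to 3679. MT-ND4, a proton-pumping subunit, fell in SCC15 (-0.57 ± 0.11 (SE)) and rose in SCC25 (0.74 ± 0.077 (SE)). Each call of an ND gene kept its direction with equal totals. The ND share of all reads was 0.525%, 0.527% and 0.533% with DMSO and 0.181%, 0.152% and 0.128% with squamocin in SCC15, and 1.21%, 1.26% and 1.22% and 1.02%, 1.11% and 0.851% in SCC25. In the squamocin libraries the nuclear subunits took a higher share and the mitochondrial subunits a lower share of reads than in every DMSO library of the same line. MT-ND4 and MT-ND4L overlap on 1 RNA, so their reads cannot be fully told apart.

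The 11 assembly factors without an NDUFAF name were split in both lines, since SCC15 had 4 higher and 2 lower and SCC25 had 4 higher and 5 lower, with medians of 0.050 and 0.14. The share called higher was near the 30.9% and 38.3% of all genes. With equal totals the counts were 2 higher and 6 lower in SCC15 (all genes 14.6% and 51.0%) and 2 and 5 in SCC25 (all genes 30.2% and 47.6%). TMEM186, a partner of NDUFAF1 in membrane arm assembly, fell in SCC15 from 192 ± 7.23 (SD, n = 3) to 42.0 ± 14.2 normalized counts, a log2 fold change of -2.22 ± 0.24 (SE), and in SCC25 from 319 ± 18.1 to 62.8 ± 16.9, a log2 fold change of -2.36 ± 0.16 (SE). TMEM126B, of the same complex, rose in both, by 0.77 ± 0.12 (SE) and 0.95 ± 0.058 (SE). ECSIT rose in SCC15 (1.17 ± 0.15 (SE)) and fell in SCC25 (-0.48 ± 0.067 (SE)). ACAD9 fell in SCC25 (-1.53 ± 0.076 (SE)) and did not pass in SCC15 (-0.19 ± 0.081 (SE)). The complex that contains NDUFAF1 held members that rose and members that fell in each line.

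The nuclear subunits of Complexes II to V also rose in most cases. Of the 38 tested, the calls in SCC15 were 30 higher and 0 lower, and those in SCC25 were 30 higher and 5 lower, with medians of 0.86 and 0.46, beside 0.79 and 0.44 for the Complex I subunits. Over all genes 30.9% and 30.0% were called higher and lower in SCC15, and 38.3% and 38.5% in SCC25. With equal totals 18 were higher and 1 lower in SCC15 (all genes 14.6% and 51.0%) and 22 and 7 in SCC25 (all genes 30.2% and 47.6%). No test set Complex I against the rest.

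Promoter windows were read for the members because many of them rose together. RefSeq windows (GRCh38.p14, 250 bases before to 50 after the start of a gene) matched 39 of the 47 members by symbol, 8 had no entry, and a gene with several windows was counted once. The letters GCATGCGC, the core of the site bound by NRF1, a regulator of respiratory genes, were found on either strand in 8 of 39 members (20.5%), beside 3.68% of all 27305 genes with a window. AAGATGGC, a site of YY1, was found in 8 of 39 (20.5%), beside 3.52%. CCGGAAGT, bound by GABPA and other ETS factors, was in 2 (5.13%) beside 4.95%, and TGATGNAA, the composite of ATF4 and C/EBP, in 2 (5.13%) beside 4.46%. A match is a description of the letters and not a bound site. The 27305 genes were not matched to the members in expression or base composition, so the gap may not be particular to Complex I genes. The NRF1 letters lay in subunits and assembly factors, as the following 30-base stretches show, with the motif or its reverse complement in capitals.
NDUFAF4, chr6:96897867-96897896, minus strand: ccctcacttgtGCGCATGCtccgggtgtcc
NDUFAF5, chr20:13785013-13785042, plus strand: aagccgcgctgGCGCATGCgcacaaaaagc
NDUFA6, chr22:42090920-42090949, minus strand: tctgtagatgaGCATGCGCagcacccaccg
NDUFS7, chr19:1383823-1383852, plus strand: ttccggtttccGCATGCGCtccgagccgct

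The YY1 letters were placed alike in all 8 members that held them, on the gene's own strand. Their first base lay 10 to 26 bases after the start, with the 10 from a second window of NDUFAF8. The stretches below come from an assembly factor and from 4 subunits, among them NDUFS4 and NDUFS7, which rose in SCC15 and did not pass the test in SCC25.
NDUFAF8, chr17:81239316-81239345, plus strand: aggacggacctAAGATGGCggcctccaggg
NDUFA6, chr22:42090729-42090758, minus strand: gatgctttggcAAGATGGCggggagcggcg
NDUFB8, chr10:100529836-100529865, minus strand: tgaagaaggtgAAGATGGCggtggccaggg
NDUFS4, chr5:53560649-53560678, plus strand: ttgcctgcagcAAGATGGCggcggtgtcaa
NDUFS7, chr19:1383913-1383942, plus strand: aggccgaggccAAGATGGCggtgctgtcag

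Members with and without a motif are compared as counts only. Over all genes tested, 30.9% were called higher in SCC15 and 38.3% in SCC25. Of 8 members with the NRF1 letters, 6 rose in SCC15 and 6 in SCC25, with median log2 fold changes of 0.75 and 0.62. Members with a window and no NRF1 letters had medians of 0.79 over 30 genes in SCC15 and 0.43 over 31 in SCC25. Of the YY1 members, 7 of 7 tested rose in SCC15 (median 0.85) and 4 of 8 in SCC25 (median 0.33). The YY1 member not tested in SCC15 was NDUFA7, which was lower with squamocin there. With all genes above 0 its log2 fold change was -2.12 (limma, adjusted p = 0.00929). Those without them had medians of 0.78 and 0.59. Without the YY1 letters, 22 of 31 rose in SCC15 and 24 of 31 in SCC25. With equal totals the SCC15 calls of NDUFA3, NDUFA6, NDUFA9 and NDUFAF8, which hold the YY1 letters, were lost. Those of NDUFA5, NDUFA6 and NDUFS6, which hold the NRF1 letters, were lost too, as were calls of members with neither.

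The log2 fold change of a subunit was compared with its level and its length, over the 36 subunits tested in SCC15 and the 37 in SCC25. The Pearson correlation with the log2 level with DMSO was -0.20 and -0.40, and with log2 exonic length -0.13 and -0.18. Spearman's rho was 0.071 and -0.39 for level and -0.085 and -0.16 for length. These correlations are descriptions across genes that share the same libraries, and the DMSO level enters both axes of those with level.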

How the data were processed

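The 12 libraries are RNA-seq of squamocin-treated and DMSO-treated SCC15 and SCC25 cells. The authors aligned reads to GRCh38 with HISAT2 2.0.5 and counted them per gene with featureCounts 1.5.0-p3, per the submitters' processing notes. The kit's strand setting is not given in the sources used here. Each deposited value is a signal, a gene's read count over the size factor of its library, which the authors set per cell line. The SCC25 columns are named FPKM but hold such values. Multiplied by that factor, 100% of values came out whole within 0.1, which recovered 16665563 to 22748845 reads per library. The deposited tables also hold the authors' own fold changes and p-values, which were not used.

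After 1 was added, values were put on a log2 scale and tested with limma 3.58.1 (R 4.3.3, trended eBayes). Tests were two-sided, genes needed a mean of at least 10, and Benjamini-Hochberg adjusted p-values had to be under 0.05. Responses of the lines were compared by a contrast of all 4 groups on 14454 shared genes. Scripts were tested on simulated data. Alternatives were pseudocounts of 0.1 and 10, other filters, TMM factors, equal totals, count models (edgeR 4.0.16, DESeq2 1.42.0) for recovered reads, a replicate block, omission of each library, and protein-coding genes alone. Equal totals without SCC15 squamocin replicate 3 was chosen after the data had been seen. Exonic lengths and overlaps are from GENCODE release 44.

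The members, roles, lists and motifs were chosen with earlier results of these data known. Named with values are the 8 NDUFAF genes, the core subunits of the peripheral arm, of which 1 is not reported here, up to 4 subunits per line and direction with the strongest change past the threshold, the 4 members with the largest difference of responses past the threshold, NDUFA4 and NDUFA4L2. The remaining subunits and the genes of other lists were named after their values were seen.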

Additional observations from a re-analysis of the deposited data

Results flagged for a closer look

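16 members are listed because their response to squamocin differed between SCC15 and SCC25 in the test of the difference itself (limma, adjusted over all genes tested in both lines). Of 46 members tested, 11 were more positive and 5 more negative in SCC15, beside 26.1% and 26.0% of all genes. These shares are near the background or below it. Values are the log2 fold change in SCC15 minus that in SCC25. The response was more positive in SCC15 for NDUFA4L2 (1.57), NDUFS4 (1.23), NDUFS7 (1.19), NDUFB11 (0.98), NDUFS8 (0.88), NDUFA10 (0.84), NDUFAF3 (0.78), NDUFV1 (0.76), NDUFS3 (0.62), NDUFB4 (0.47) and NDUFS1 (0.30). It was more negative in SCC15 for NDUFC2 (-1.48), NDUFAF4 (-1.31), NDUFA13 (-1.16), NDUFC1 (-0.89) and NDUFAF1 (-0.72). With equal library totals, 13 of these 16 still passed the test, and NDUFS1, NDUFS3 and NDUFB4 did not. By that scaling 8 members were more positive and 11 more negative in SCC15, beside 2396 and 5472 of all genes. Members outside the list then passed too, such as NDUFB8 at -0.83 (limma, adjusted p = 0.00180), so the balance of directions depends on the scaling. NDUFA4L2, counted among the 16 and the 13, entered the SCC15 fit through its squamocin libraries alone, so its place there is a description.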

How the results depend on the processing

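Scaling the libraries to equal totals changed many counts. In SCC15 it gave 12 subunits higher and 3 lower and 3 assembly factors lower, with medians of 0.29 and 0.082. With squamocin replicate 3 also left out, the counts were 15, 6 and 3 and the medians 0.072 and -0.011, so the median of the assembly factors changed sign, and NDUFC1 stood at -0.042 and NDUFAF6 at -0.15. The share and the median of all genes were not computed for that fit, so these values have no background. In SCC25 equal totals gave 7 subunits and 2 assembly factors lower, with medians of 0.23 and 0.24, beside 47.6% of all genes lower. In the difference of the responses 6 subunits were then higher in SCC15 and 7 lower, beside 2396 and 5472 of all genes. Among the named genes, NDUFAF6 in SCC15 (-0.19) and NDUFAF3 in SCC25 (-0.047) changed sign. The shift follows from the larger normalized totals of the squamocin libraries.

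TMM factors called 5 subunits lower in SCC15 in the difference of the responses. TMM, edgeR, DESeq2 and protein-coding genes alone each called 2 assembly factors lower in SCC15, and edgeR 1 subunit (NDUFS1). With all genes above 0, 1 subunit (NDUFA7) was lower in SCC15. Shares of all genes were not computed for these fits.

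Leaving out each library gave 17 to 31 subunits higher and 0 to 4 lower in SCC15, with medians of 0.49 to 0.91, and 1 to 3 assembly factors lower. The fewest higher subunits came without DMSO replicate 1, 2 or 3 (18, 17 and 18), and the 4 lower without squamocin replicate 3. That last fit called 6086 of all genes higher and 6022 lower. Without squamocin replicate 3, 3 assembly factors were lower, and without DMSO replicate 1, 2 were. In SCC25 the ranges were 26 to 29 subunits higher, 3 to 4 lower and 0 to 1 assembly factors lower (1 without squamocin replicate 2 or DMSO replicate 3). For the difference, 7 to 14 subunits were higher in SCC15 and 3 to 11 lower. The 14 higher came without SCC15 squamocin replicate 1 or 3 and the 11 lower without replicate 3. Without replicate 3, 4705 of all genes were called higher in SCC15 and 4842 lower. NDUFAF4 in SCC15 stood at 0.032 without squamocin replicate 1 and at -0.37 without replicate 3. The cause of these changes was not tested.

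Libraries with the same replicate number did not deviate together (correlations of deviations -0.05 to 0.01), so the numbers do not pair them. With the replicate block, 31 subunits were higher in SCC15 and 28 in SCC25. Over all alternatives, 253 counts and medians of the lists kept within 1.5 times the reported count or the SD between the squamocin libraries' medians, 32 moved further and 1 changed sign. The SCC15 subunit median of 0.49 without squamocin replicate 3, against 0.79, is within that wide SD but moved by over 1.5 times. Of the named genes' values, 850 kept direction and call, 31 gained a call, 25 lost one and 5 changed sign. Depth limits NDUFA7, NDUFA4L2, NDUFA13 and NDUFV2, the lowest members with DMSO in both lines. In SCC15 with DMSO the mean of NDUFV2 was 53.4 and that of NDUFA13 was 78.9.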

Other observations

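The nuclear genes of the other complexes are given by complex. Over all genes 30.9% were called higher and 30.0% lower in SCC15, and 38.3% and 38.5% in SCC25. Complex II, the succinate dehydrogenase, had 3 of 4 genes higher and 0 lower in SCC15 (median 0.65) and 2 of 4 genes higher and 1 lower in SCC25 (median 0.12), and SDHA, its flavin subunit, fell in SCC25 (log2 fold change -0.49 ± 0.051 (SE)). Complex III, the cytochrome bc1 complex, had 7 of 9 genes higher and 0 lower in SCC15 (median 0.94) and 5 of 9 genes higher and 2 lower in SCC25 (median 0.19). UQCRFS1, its Rieske iron-sulfur protein, fell in SCC25 (-0.64 ± 0.050 (SE)) while UQCRB, which helps to hold ubiquinone, rose there (1.06 ± 0.045 (SE)). Complex IV, the cytochrome c oxidase, had 9 of 10 genes higher and 0 lower in SCC15 (median 0.98) and 10 of 10 genes higher and 0 lower in SCC25 (median 0.64), with COX8A highest in SCC15 (1.14 ± 0.24 (SE)) and COX6A1 in SCC25 (1.03 ± 0.053 (SE)). Complex V, the ATP synthase, had 11 of 15 genes higher and 0 lower in SCC15 (median 0.63) and 13 of 15 genes higher and 2 lower in SCC25 (median 0.56), with ATP5MC2, which encodes subunit c of the rotor, highest in SCC15 (1.50 ± 0.23 (SE)) and ATP5F1A, the alpha subunit of its catalytic head, lower in SCC25 (-0.46 ± 0.042 (SE)). With equal library totals, 14.6% of all genes were called higher and 51.0% lower in SCC15, and 30.2% and 47.6% in SCC25. By that scaling, 7 of 10 Complex IV genes were called higher in SCC15 and 8 in SCC25, and 4 and 10 of 15 Complex V genes. Complex II then had 1 higher and 1 lower in the SCC15 fit, against 1 and 2 in SCC25. For Complex III the counts were 6 and 0 in SCC15, against 3 and 3 in SCC25. The split by complex was made after the data had been seen and has no test.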
